A study of Mus musculus with 6 samples.

Results

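The genes described are 10 genes of the red blood cell lineage, Gata1, Klf1, Epor, Tfrc, Hba-a1, Hbb-bs, Car1, Car2, Sptb and Rhd. They were taken by symbol from a deposited table of 26776 genes. All 10 had a row, and all 10 were among the 18081 genes that passed the filter on low counts. The RNA came from eGFPhi and eGFPlo long-term haematopoietic stem cells (LT-HSCs) of the bone marrow of Trim47+/eGFP mice, with 3 libraries of each. By its name the genotype carries eGFP at an allele of Trim47 in both groups, so eGFPhi and eGFPlo are cells of the same genotype sorted by reporter fluorescence. The sources used here give neither the age and number of the mice, nor the sort gate, nor whether libraries came from separate animals, so p-values measure the spread between these libraries, which may be technical. The comparison asks how transcripts differ between cells with high and low activity of the Trim47 reporter.

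Red cell formation is built around a small set of transcription factors, with GATA1 and KLF1 at its centre, and around erythropoietin, which keeps committed progenitors alive through its receptor. Committed cells then import iron through the transferrin receptor, make heme and alpha and beta globin, and assemble a membrane skeleton of spectrin. LT-HSCs sit upstream of these steps and are known to carry low levels of many lineage transcripts. GATA2 is a stem cell member of the GATA family, and its replacement by GATA1 on shared target genes is a known step of erythroid commitment.

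Libraries held 11221070 to 26058391 counts, so that 3 counts, the floor of a library, stood at 0.115 to 0.267 CPM. CPM are counts divided by library size, after TMM factors corrected that size for library composition. Fold changes, eGFPhi over eGFPlo, and their p-values are from edgeR's quasi-likelihood test, with Benjamini-Hochberg adjustment over all 18081 genes and a threshold of 0.05. SE is the standard error of the log2 fold change. The groups differed broadly: 31.7% of tested genes were lower and 32.3% higher in eGFPhi, together 64.0%. The median log2 fold change over all tested genes was 0.00. Trim47, the gene that carries the reporter, had 21.6, 26.2 and 23.3 CPM in eGFPhi, against 7.28, 8.18 and 8.92 CPM in eGFPlo, and rose 2.91-fold (edgeR adjusted p = 1.69e-05). Of 10 stem cell markers 9, among them Procr, Fgd5 and Slamf1, were higher in eGFPhi, while Ly6a did not pass (edgeR adjusted p = 0.0623). The 10 markers summed to 2006 to 2214 CPM in eGFPhi and 947 to 986 CPM in eGFPlo. Kit gave the largest part of both sums, at a mean of 783 CPM in eGFPhi and 539 CPM in eGFPlo. Hoxb5, also higher, met the filter on low counts in every eGFPhi library but in no eGFPlo library, and so entered the test through eGFPhi. The progenitor markers Cd34, Flt3, Cd48 and Il7r were all lower in eGFPhi, summing to 222 to 235 CPM in eGFPhi and 456 to 457 CPM in eGFPlo. Of these, Flt3, Cd48 and Il7r are usually absent from LT-HSCs. Il7r met the filter on low counts in every eGFPlo library but not in every eGFPhi library, and so entered the test through eGFPlo. Flt3 averaged 73.3 CPM in eGFPhi and 167 CPM in eGFPlo, the myeloid gene Mpo 189 CPM in eGFPhi and 3885 CPM in eGFPlo, and the immunoglobulin gene Igkc 336 CPM in eGFPhi and 2726 CPM in eGFPlo. These levels go against the LT-HSC label, more so in eGFPlo.

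Of the 10 erythroid genes, 8 fell and 1, Car2, rose in eGFPhi, against 31.7% and 32.3% of all tested genes called in these directions. Hbb-bs did not pass the threshold. The median log2 fold change of the 10 genes was -0.80. In 9 of the 10 the groups did not overlap, against 69.8% of all tested genes, and the 8 that fell were among these, against 34.6% of tested genes with all eGFPhi values below those of eGFPlo. Falls ranged from 1.52-fold for Hba-a1 to 9.14-fold for Rhd. Mean levels ran from 0.532 CPM for Rhd to 390 CPM for Car2 in eGFPhi, and from 1.26 CPM for Hbb-bs to 236 CPM for Car2 in eGFPlo.

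Promoter sequences are shown for 4 of the genes, because the lineage factors among the 10 bind known motifs in such regions. All 4 windows shown hold a GATA motif, and whether motifs relate to the changes was not tested. They are from RefSeq on GRCm38.p6 and run from 250 bases before to 50 bases after the annotated start, in the direction of transcription. Capitals mark the GATA motif (the letters GATA with A or T before and A or G after them, or the reverse complement) and CCACACCC, a form of the CACCC box known to be bound by KLF1. Both strands were searched.
Klf1, chr8:84901732-84902031, plus strand: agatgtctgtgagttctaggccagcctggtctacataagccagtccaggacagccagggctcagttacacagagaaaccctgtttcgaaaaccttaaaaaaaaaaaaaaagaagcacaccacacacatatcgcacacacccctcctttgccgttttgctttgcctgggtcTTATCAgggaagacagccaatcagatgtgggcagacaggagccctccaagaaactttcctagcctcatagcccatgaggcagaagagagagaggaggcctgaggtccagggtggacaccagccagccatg
Rhd, chr4:134864286-134864585, plus strand: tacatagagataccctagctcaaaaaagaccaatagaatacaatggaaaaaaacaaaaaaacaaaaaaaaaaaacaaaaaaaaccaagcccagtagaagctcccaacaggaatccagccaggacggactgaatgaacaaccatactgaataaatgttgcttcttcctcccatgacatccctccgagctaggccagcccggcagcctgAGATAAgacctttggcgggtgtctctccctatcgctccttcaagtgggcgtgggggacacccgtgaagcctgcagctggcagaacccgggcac
Hba-a1, chr11:32283422-32283721, plus strand: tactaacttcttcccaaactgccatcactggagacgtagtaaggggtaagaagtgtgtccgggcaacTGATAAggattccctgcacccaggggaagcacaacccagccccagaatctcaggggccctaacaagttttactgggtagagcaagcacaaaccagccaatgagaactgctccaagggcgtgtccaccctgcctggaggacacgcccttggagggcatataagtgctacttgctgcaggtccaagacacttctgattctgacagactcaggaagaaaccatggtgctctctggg
Hbb-bs, chr7:103827879-103828178, minus strand: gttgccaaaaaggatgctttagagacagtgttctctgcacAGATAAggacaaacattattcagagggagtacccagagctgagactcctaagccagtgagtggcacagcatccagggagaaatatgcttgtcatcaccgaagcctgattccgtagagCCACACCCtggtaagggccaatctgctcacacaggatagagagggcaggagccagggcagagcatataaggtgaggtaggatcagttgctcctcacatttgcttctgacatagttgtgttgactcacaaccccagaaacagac

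The GATA motif began 80 bases before the start of Klf1, where it reads on the opposite strand, 43 bases before that of Rhd, 183 before that of Hba-a1 and 210 before that of Hbb-bs. CCACACCC was found 93 bases before the start of Hbb-bs. The promoter table held 8 of the 10 genes in 9 windows, and 6 genes had a GATA motif, Epor and Sptb being the others, while the windows of Gata1 and Tfrc had none. Among all 32851 windows of 300 bases in that table, 29.8% held a GATA motif and 3.56% held CCACACCC. The looser CCNCNCCC, which includes CCACACCC, occurred in windows of 6 of the 8 genes and in 49.5% of all windows. These matches describe letters in the windows and are not binding sites.

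Gata1 (ENSMUSG00000031162, chromosome X, 7959260 to 7978071 on GRCm38), the zinc finger factor required for red cells and megakaryocytes, stood at 8.72, 10.6 and 8.94 CPM in eGFPhi, against 14.9, 15.7 and 14.6 CPM in eGFPlo. Every eGFPhi library lay below every eGFPlo library. The fall was 1.59-fold (log2 fold change -0.67, SE 0.10, edgeR adjusted p = 0.000903). Klf1 (ENSMUSG00000054191, chromosome 8, 84901928 to 84905295), the Krueppel-like factor that activates adult beta globin, had 5.79, 6.99 and 5.45 CPM in eGFPhi, against 13.0, 12.4 and 12.3 CPM in eGFPlo. Its groups were also apart, with a 2.05-fold fall (log2 fold change -1.03, SE 0.12, edgeR adjusted p = 0.000195).

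Of 19 listed erythroid transcription factors, all tested, 12 rose and 5 fell, against 32.3% and 31.7% of all tested genes, at a median log2 change of 0.30. Gata2 rose 3.18-fold, at 360 ± 7.92 CPM in eGFPhi and 113 ± 5.44 CPM in eGFPlo (SD, n = 3 each). Tal1, the helix-loop-helix partner in the GATA1 complex that is also needed to form HSCs, rose 2.98-fold, at 155 ± 8.55 and 52.1 ± 0.64 CPM. Besides Gata1 and Klf1, the falls included Myb, a factor of proliferating progenitors (1.30-fold), and Spi1, which encodes the myeloid factor PU.1 and antagonises GATA1 (1.59-fold). The share of Gata1 in the counts of Gata1 plus Gata2, which needs no scaling between libraries and was chosen after the values were seen, was 2.42, 2.80 and 2.43% in eGFPhi and 11.9, 11.7 and 11.8% in eGFPlo. An exact two-sided permutation test of these 3 against 3 values gave p = 0.1, the smallest that this design allows.

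Epor (ENSMUSG00000006235, chromosome 9, 21958897 to 21963506), the erythropoietin receptor, had 2.67, 2.54 and 2.67 CPM in eGFPhi, against 5.48, 4.19 and 3.99 CPM in eGFPlo. The eGFPhi values were close together and all lay below those of eGFPlo, of which replicate 1 was the highest. The fall was 1.72-fold (log2 fold change -0.78, SE 0.16, edgeR adjusted p = 0.00412) and rests on 30 to 72 counts per library. Of 16 listed genes of erythropoietin receptor signalling, 8 rose and 3 fell, against 32.3% and 31.7% of all tested genes. Their median log2 change was 0.20. Kit, the stem cell factor receptor, rose 1.45-fold. The Src family kinase gene Lyn and the kinase gene Pim1, a STAT5 target, fell 1.38-fold and 1.21-fold.

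**Figure D1:**
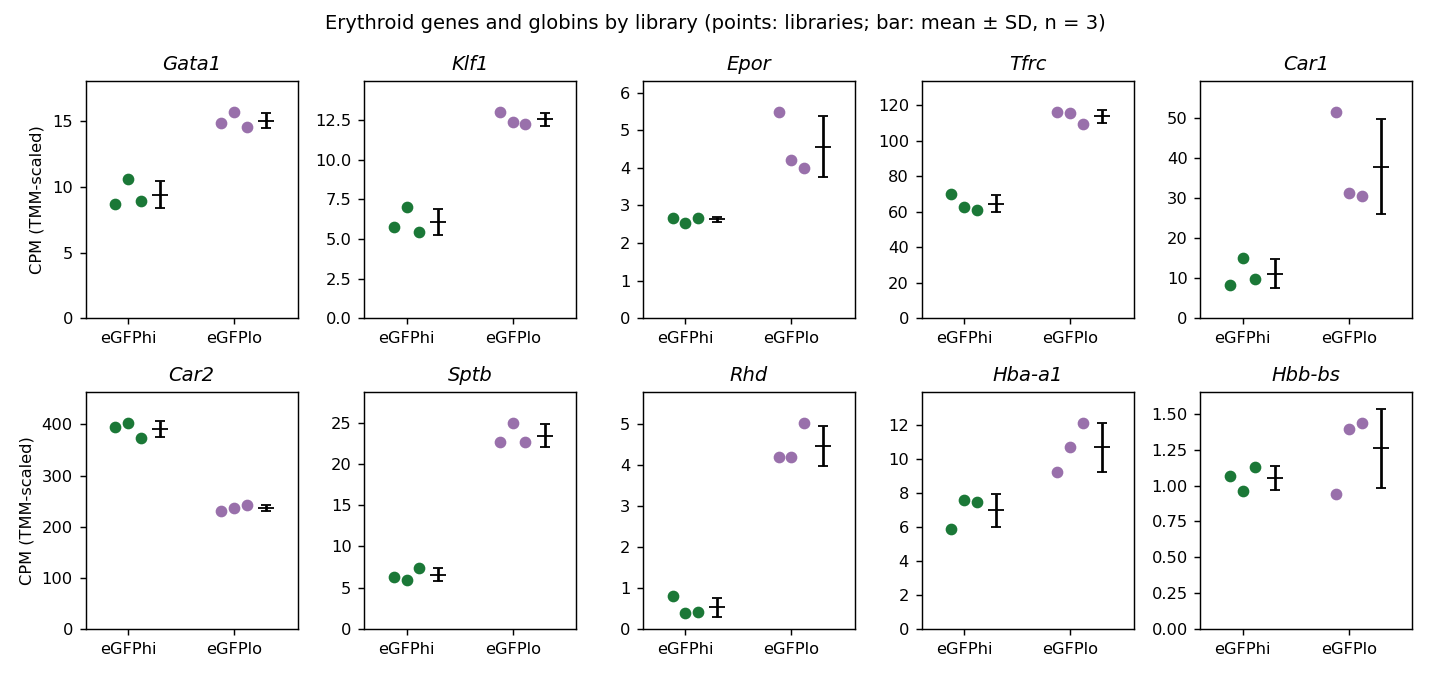
Level in CPM (TMM-scaled) of each gene in the 3 eGFPhi and 3 eGFPlo libraries, each panel with its own axis from 0, points for libraries and bars for mean ± SD (n = 3). The eGFPhi points lie below the eGFPlo points for 8 genes, above them for Car2 and among them for Hbb-bs.

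Tfrc (ENSMUSG00000022797, chromosome 16, 32608920 to 32632794), which encodes the transferrin receptor CD71 and is abundant in erythroid precursors and in dividing cells of other kinds, had 70.0, 62.6 and 60.7 CPM in eGFPhi, against 116, 115 and 109 CPM in eGFPlo. No eGFPhi library reached the lowest eGFPlo value. The fall was 1.77-fold (log2 fold change -0.82, SE 0.06, edgeR adjusted p = 1.47e-05). Its relative Tfr2, a transferrin sensor that associates with the erythropoietin receptor, went the other way and rose 1.52-fold, at 64.7 ± 5.64 CPM in eGFPhi and 42.5 ± 3.18 CPM in eGFPlo (SD, n = 3 each). The share of Tfrc in the counts of both genes, chosen after the values were seen, was 46.2 to 52.4% in eGFPhi and 71.5 to 73.7% in eGFPlo (exact two-sided permutation p = 0.1, the smallest possible).

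Of 19 listed genes of iron uptake and handling, 12 fell and 4 rose, against 31.7% and 32.3% of all tested genes, at a median log2 change of -0.29. Steap3, the endosomal ferrireductase that acts on iron delivered by the transferrin receptor, fell 3.62-fold, at 5.11 ± 0.909 CPM in eGFPhi and 18.2 ± 2.01 CPM in eGFPlo (SD, n = 3 each). Pcbp1, an RNA-binding protein that also carries iron to ferritin, fell 1.33-fold, and Slc25a38, a mitochondrial glycine carrier needed for heme synthesis, rose 1.72-fold. Of the 17 listed heme genes, 16 were tested, 7 fell and 4 rose, against the same 31.7% and 32.3%, with a median of -0.24. Alas1, the first enzyme of heme synthesis outside the red cell lineage, fell 5.21-fold, at 21.1 ± 0.32 CPM in eGFPhi and 110 ± 8.84 CPM in eGFPlo. Fech, which inserts the iron, and Blvra, which reduces biliverdin, rose 1.23-fold and 1.76-fold. Alas2, the erythroid form of the first enzyme, was picked with its values known and did not pass the filter, with 4, 10 and 7 counts in eGFPhi and 10, 0 and 14 counts in eGFPlo.

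The carbonic anhydrases Car1 and Car2 moved in opposite directions. These enzymes interconvert carbon dioxide and bicarbonate and are the main cytosolic forms of red cells; Car1 is a marker of committed erythroid progenitors in the mouse. Car1 (ENSMUSG00000027556, chromosome 3, 14766216 to 14808368) had 8.28, 15.1 and 9.76 CPM in eGFPhi, against 51.5, 31.3 and 30.6 CPM in eGFPlo. Replicate 2 was the highest of eGFPhi and replicate 1 the highest of eGFPlo, so Car1 varied more within groups than most of the 10 genes, with a coefficient of variation of 32.6% in eGFPhi and 31.4% in eGFPlo. The groups did not overlap, and the fall was 3.31-fold (log2 fold change -1.73, SE 0.27, edgeR adjusted p = 0.00100).

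Car2 (ENSMUSG00000027562, chromosome 3, 14886273 to 14900770) had 394, 403 and 373 CPM in eGFPhi, against 231, 237 and 241 CPM in eGFPlo. The lowest eGFPhi library was above the highest eGFPlo library, and the rise was 1.65-fold (log2 fold change 0.72, SE 0.03, edgeR adjusted p = 1.93e-06). Car1 made up 2.06, 3.62 and 2.55% of the counts of Car1 plus Car2 in eGFPhi. In eGFPlo the share was 18.2, 11.7 and 11.2%. The exact (Clopper-Pearson) 95% intervals of the libraries ran from 1.66 to 3.99% over eGFPhi and from 10.4 to 19.6% over eGFPlo and cover counting error only. The mean difference was -11.0 percentage points, with an exact two-sided permutation p of 0.1, the smallest possible.

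Both genes belong to a cluster on chromosome 3 together with Car13 (14641727 to 14663002) and Car3 (14863512 to 14872523). Car3 fell 1.87-fold (edgeR adjusted p = 0.0301) at 2.30 ± 0.916 CPM in eGFPhi and 4.08 ± 0.525 CPM in eGFPlo (SD, n = 3 each), a call lost without eGFPlo replicate 1 or 2 (edgeR adjusted p = 0.0564 and 0.0903). Car13, chosen for its position, did not pass, at 7.59 ± 0.368 and 9.30 ± 1.43 CPM (edgeR adjusted p = 0.0771). Of 16 listed carbonic anhydrases, 11 were tested, of which 4 rose and 2 fell, against 32.3% and 31.7% of all tested genes. Car11, a catalytically inactive member, had 10, 33 and 20 counts in eGFPhi and none in eGFPlo, which makes it at least 15.6-fold higher in eGFPhi against a floor of 3 counts over the group. Car8, also inactive, rose on 11, 21 and 15 counts in eGFPhi, against 2, 1 and 1 in eGFPlo. Car11 and Car8 thus entered the test through eGFPhi. Car2 was the most abundant of the 10 genes in both groups.

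**Figure D2:**
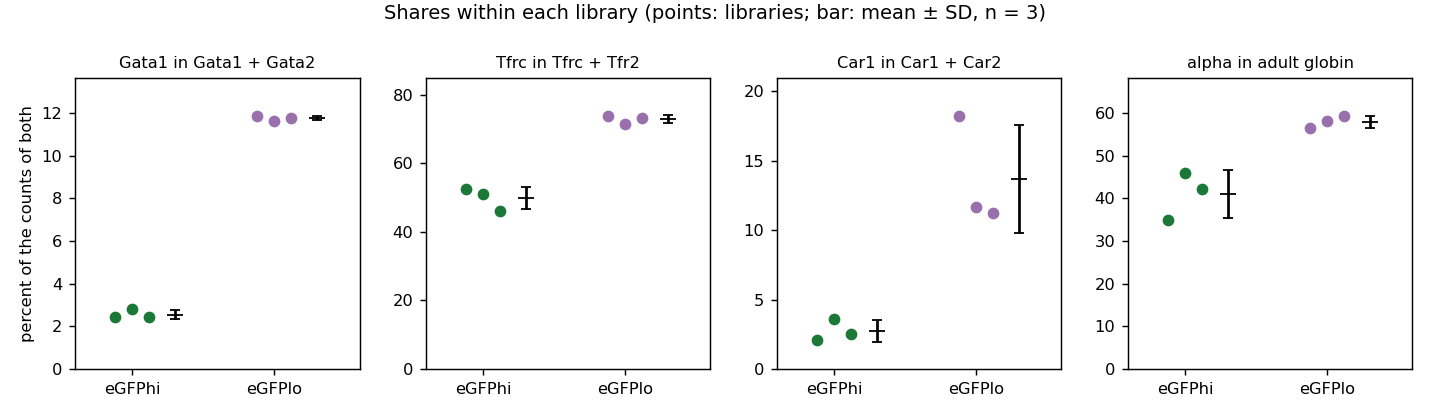
Share, in percent, of Gata1 in Gata1 plus Gata2 counts, of Tfrc in Tfrc plus Tfr2 counts, of Car1 in Car1 plus Car2 counts and of alpha globin in adult globin counts, for the 3 eGFPhi and 3 eGFPlo libraries, with points for libraries and bars for mean ± SD (n = 3). In each panel the eGFPhi libraries lie below the eGFPlo libraries, for example 2.06 to 3.62% against 11.2 to 18.2% for Car1.

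Sptb (ENSMUSG00000021061, chromosome 12, 76580488 to 76710547), the erythroid beta chain of spectrin, had 6.32, 5.99 and 7.45 CPM in eGFPhi, against 22.6, 25.0 and 22.7 CPM in eGFPlo. The groups were well apart, and the fall was 3.56-fold (log2 fold change -1.83, SE 0.11, edgeR adjusted p = 5.81e-06). The ankyrin gene Ank1, which ties spectrin to the membrane, was looked at after its values were seen and fell 1.95-fold (edgeR adjusted p = 2.49e-05). Of 16 listed genes of the red cell membrane skeleton, 8 fell and 4 rose, against 31.7% and 32.3% of all tested genes. Their median log2 change was -0.11. Stom, encoding the membrane protein stomatin, fell 2.92-fold, at 18.0 ± 1.27 CPM in eGFPhi and 52.8 ± 1.82 CPM in eGFPlo (SD, n = 3 each), and Actb fell 1.16-fold. Epb41, encoding protein 4.1, which joins spectrin to actin, rose 1.83-fold, at 380.3 ± 1.45 and 208 ± 8.96 CPM, and the actin-capping gene Tmod3 rose 1.54-fold.

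Rhd (ENSMUSG00000028825, chromosome 4, 134864536 to 134896172), which encodes the Rh protein of the red cell membrane, had the largest fold of the 10 genes. It stood at 0.801, 0.384 and 0.411 CPM in eGFPhi, against 4.20, 4.19 and 5.04 CPM in eGFPlo. These values come from 9, 10 and 8 counts in eGFPhi and 49, 60 and 91 counts in eGFPlo, so the level in eGFPhi is only a few times the floor of 3 counts. The fall was 9.14-fold (log2 fold change -3.19, SE 0.26, edgeR adjusted p = 3.18e-05), and 2.39% of tested genes had a lower log2 fold change. Rhd met the filter on low counts in every eGFPlo library but not in every eGFPhi library, so it entered the test through eGFPlo. Rhag, its partner in the Rh complex, was looked at after its values were seen and did not pass, at 2.17 ± 0.583 CPM in eGFPhi and 2.53 ± 0.484 CPM in eGFPlo (SD, n = 3 each, edgeR adjusted p = 0.584).

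Of 15 measured genes of blood groups and the Rh complex, 6 fell and 5 rose, at a median log2 change of -0.16. These were 40% and 33.3% of the list, against 31.7% and 32.3% of all tested genes. Kel and Ermap, which carry the Kell and Scianna blood groups in humans, fell 3.29-fold and 2.58-fold. Art4, the human Dombrock antigen, rose 6.10-fold, at 62.1 ± 0.206 CPM in eGFPhi and 10.2 ± 1.88 CPM in eGFPlo (SD, n = 3 each), and Bcam, the human Lutheran antigen, rose 2.77-fold. Of 17 listed genes of late erythroid maturation, 5 fell and 6 rose, with a median of 0.20. At 29.4% and 35.3%, these were near the shares over all tested genes. Trim10, among those that fell, entered the test through eGFPlo. Pklr, the pyruvate kinase of liver and red cells, fell 6.70-fold at 1.36 ± 0.485 CPM in eGFPhi and 8.65 ± 2.01 CPM in eGFPlo, and Prdx2, an abundant red cell peroxidase, fell 1.38-fold. Ube2l6, an enzyme that conjugates ISG15, rose 2.01-fold, and the glucose transporter gene Slc2a1 rose 1.55-fold.

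Alpha globin fell while no difference was called for beta globin. Hba-a1 (ENSMUSG00000069919, chromosome 11, 32283511 to 32284465), an adult alpha globin gene, had 5.87, 7.57 and 7.45 CPM in eGFPhi, against 9.25, 10.7 and 12.1 CPM in eGFPlo. The groups did not overlap, and the fall was 1.52-fold (log2 fold change -0.61, SE 0.14, edgeR adjusted p = 0.00719). Hbb-bs (ENSMUSG00000052305, chromosome 7, 103826534 to 103828096), an adult beta globin gene, had 1.07, 0.961 and 1.13 CPM in eGFPhi, against 0.942, 1.40 and 1.44 CPM in eGFPlo. Its groups overlapped, on 11 to 26 counts per library, and it did not pass (log2 fold change -0.29, SE 0.23, edgeR adjusted p = 0.296).

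Each adult globin gene has a near-identical copy, so reads may be split between them in ways the sources used here do not describe. The coding sequences of Hba-a1 and Hba-a2 differed at 1 of 426 bases, and 85.9% of the 100-base stretches of the Hba-a1 coding sequence also occurred in a transcript of Hba-a2. Those of Hbb-bs and Hbb-bt differed at 1 of 441 bases, with 92.7% of stretches shared. Hba-a2 had 0, 34 and 0 counts in eGFPhi, against 27, 40 and 66 counts in eGFPlo, and so entered the test through eGFPlo. Its fall in the fit (log2 fold change -2.39, SE 0.82, edgeR adjusted p = 0.0346) was lost when any library other than eGFPhi replicate 2 was left out, with adjusted p of 0.0557 to 0.0957, so its value is uncertain. Hbb-bt had 9.88, 9.49 and 9.09 CPM in eGFPhi, against 7.97, 8.32 and 9.41 CPM in eGFPlo, and did not pass (log2 fold change 0.14, SE 0.10, edgeR adjusted p = 0.274).

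Sums over the copies do not depend on how reads were divided between them, but would not restore reads dropped, or correct reads counted for both genes. Hba-a1 plus Hba-a2 came to 5.87, 8.88 and 7.45 CPM in eGFPhi, against 11.6, 13.5 and 15.8 CPM in eGFPlo. With the copies summed before the fit, a choice made after the data were seen, alpha globin fell 1.82-fold (log2 fold change -0.86, SE 0.17, edgeR adjusted p = 0.00327). Hbb-bs plus Hbb-bt came to 10.9, 10.5 and 10.2 CPM in eGFPhi, against 8.91, 9.71 and 10.9 CPM in eGFPlo. These groups overlapped and the sum did not pass (log2 fold change 0.09, SE 0.10, edgeR adjusted p = 0.495). Alpha globin made up 34.9, 45.9 and 42.2% of adult globin counts in eGFPhi and 56.5, 58.1 and 59.3% in eGFPlo (exact two-sided permutation p = 0.1, the smallest possible; chosen after the values were seen). The sum over the 5 globins of the table was 18.0 ± 1.29 CPM in eGFPhi and 23.4 ± 3.09 CPM in eGFPlo (SD, n = 3 each), with no overlap and the same p of 0.1. The embryonic globin gene Hbb-bh1 had 1 count in all, in eGFPhi.

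**Figure D3:**
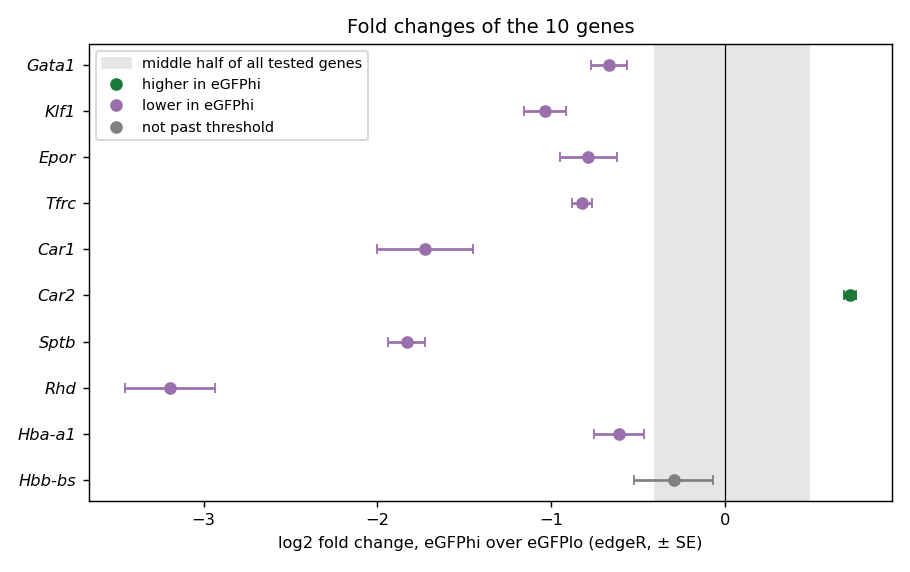
Log2 fold change, eGFPhi over eGFPlo, of each gene from edgeR with its SE; the grey band spans the middle 50% of all tested genes and colours give the call. Rhd lies lowest at -3.19, Car2 is the gene on the right at 0.72, and Hbb-bs lies within the band.

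Per kilobase of merged exons, which allows levels of different genes to be compared, Car2 led the 10 genes in both groups, at 161 ± 6.36 CPM per kb in eGFPhi and 97.6 ± 2.06 CPM per kb in eGFPlo (SD, n = 3 each). In eGFPhi the order after Car2 was Tfrc (10.4 ± 0.789 CPM per kb), Car1, Hba-a1, Klf1, Gata1, Hbb-bs, Epor, Sptb and Rhd (0.334 ± 0.146 CPM per kb). Neighbours whose library values overlapped there were Tfrc and Car1, Car1 and Hba-a1, Klf1 and Gata1, Hbb-bs and Epor, and Sptb and Rhd. In eGFPlo the order after Car2 was Car1 (30.3 ± 9.51 CPM per kb), Tfrc, Hba-a1, Klf1, Gata1, Rhd, Epor, Sptb and Hbb-bs (1.64 ± 0.359 CPM per kb). There the last 4 genes overlapped each with its neighbour, and the others did not. Rhd thus stood last in eGFPhi and seventh of the 10 genes in eGFPlo. The places of Hba-a1 and Hbb-bs depend on how reads were divided between each gene and its near-identical copy. The copy Hbb-bt, not ranked here, stood at 13.5 ± 0.559 CPM per kb in eGFPhi and 12.2 ± 1.07 CPM per kb in eGFPlo. Hba-a2 stood at 0.653 ± 1.13 and 4.38 ± 1.02 CPM per kb.

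Over the 9 erythroid lists, 136 genes were in the table, 132 were tested, 50 fell and 46 rose, at a median log2 change of 0.01 against 0.00 over all tested genes. Without the 10 genes described here, 42 of 122 tested genes fell (34.4%) and 45 rose (36.9%), at a median of 0.09. These shares are near the 31.7% and 32.3% of all tested genes. Among genes named from the lists, Myb, Lyn, Pim1, Pcbp1, Alas1, Epb41, Bcam, Slc2a1, Prdx2 and Pklr overlap exons of a gene on the opposite strand, over 52 bases in Bcam to 711 bases in Pklr. The sources used here do not state the strand setting of the counting, so reads within these overlaps cannot be assigned to one gene or the other. None of the 10 genes shares exons with another gene apart from a single base of Sptb.

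**Figure D4:**
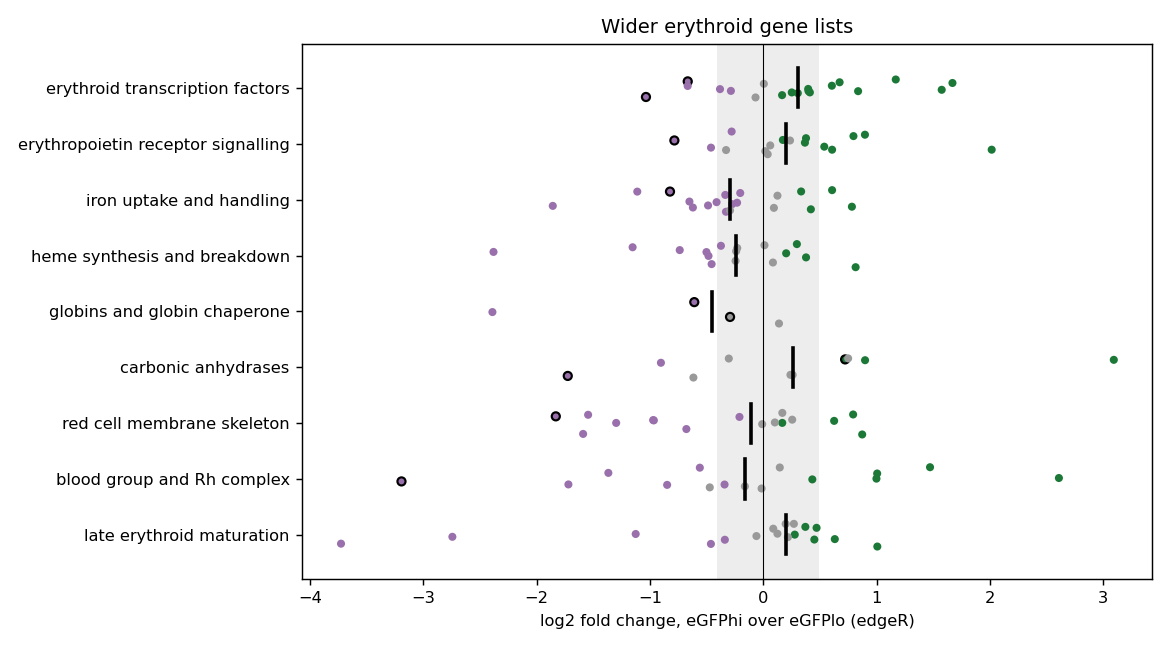
Log2 fold change, eGFPhi over eGFPlo (edgeR), of tested genes in 9 erythroid lists (green higher, purple lower, grey not past the threshold; black rims mark the 10 genes, black bars list medians, the band the middle 50% of all tested genes; Car11, with no count in eGFPlo, is left out of the points). Most rimmed genes lie left of the band, while list medians range from -0.45 for globins to 0.30 for transcription factors.

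Genes of other blood cells moved in the same libraries, in which 31.7% of all tested genes were lower and 32.3% higher in eGFPhi. In bulk RNA, fewer cells of a type and less RNA per cell cannot be told apart. Of 14 listed B cell markers all 14 fell, with summed levels of 736 to 761 CPM in eGFPhi and 6155 to 6247 CPM in eGFPlo. Vpreb3, Igll1, Cd22 and Blk had no count in eGFPhi, and Ighm and Igkc, the most abundant, fell 7.69-fold and 8.11-fold. Ms4a1, Vpreb1, Vpreb2, Vpreb3, Igll1, Cd22 and Blk did not meet the filter in every eGFPhi library and so entered the test through eGFPlo. Of 12 markers of granulocyte-monocyte progenitors 11 fell, summing to 908 to 1130.1 CPM in eGFPhi and 6425 to 6562 CPM in eGFPlo; Mpo fell 20.5-fold and Calr, a broadly expressed chaperone gene, 1.61-fold. Without Calr, left out after the values were seen, the sums were 343 to 347 CPM in eGFPhi and 5409 to 5535 CPM in eGFPlo. Of 10 tested markers of basophils, mast cells and eosinophils, cells that also use GATA1, 9 fell and 1 rose. The 12 measured markers of this list, tested or not, summed to 34.1 to 37.7 CPM in eGFPhi and 118 to 134 CPM in eGFPlo. Cma1 had no count in eGFPhi, and the most abundant, Prg2 and Epx, fell 3.32-fold and 3.13-fold. Prg3, Fcer1a, Gzmb and Il5ra, which fell, entered the test through eGFPlo, and Ear2, which rose, through eGFPhi.

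Of 6 tested T cell markers 4 fell. The 10 measured, tested or not, summed to 17.3 to 19.9 CPM in eGFPhi and 36.8 to 45.7 CPM in eGFPlo. Cd3d, Cd3e, Cd3g, Cd8a, Trbc2 and Bcl11b had no count in eGFPhi. Trbc1, Trbc2 and Bcl11b, which fell, entered the test through eGFPlo. Lck fell 1.28-fold, a call lost without eGFPhi replicate 3, eGFPlo replicate 1 or eGFPlo replicate 3 (edgeR adjusted p = 0.0571, 0.0504 and 0.0706). Bcl11b was at least 233-fold lower in eGFPhi against 3 counts over the group. Megakaryocyte and platelet markers went the other way: of 13 tested, 10 rose and 1 fell. The 14 measured, tested or not, summed to 606 to 622 CPM in eGFPhi and 199 to 208 CPM in eGFPlo. Gp6 had no count in eGFPhi, and Vwf rose 11.4-fold. Ppbp, which fell, entered the test through eGFPlo, and Treml1, which rose, through eGFPhi. The part of these other cells in the erythroid values was not tested. Slc4a1, which encodes the anion exchanger band 3 of red cells and was chosen after its values were seen, did not pass, at 4.99 ± 0.780 CPM in eGFPhi and 4.34 ± 0.719 CPM in eGFPlo (SD, n = 3 each, edgeR adjusted p = 0.439).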

How the data were processed

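RNA of 6 libraries, 3 eGFPhi and 3 eGFPlo, was selected with poly-T beads and sequenced from stranded paired-end libraries, per the labels. The deposited table gives a count per gene and library, taken as raw, and FPKM values (counts scaled to gene length and library size, by the authors), per the file headers. The submitters' processing notes list CASAVA 1.8, HISAT2, StringTie and edgeR and the builds hg38 and GRCm38, without roles; these sources give neither the counter nor its strand setting.

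The analysis used edgeR 4.0.16 in R 4.3.3: filterByExpr (minimum count 10, minimum total 15), TMM, a quasi-likelihood F test with group as the only term over all 18081 genes kept, and Benjamini-Hochberg adjustment. The SE is the log2 fold change divided by the square root of F. Single values were compared by an exact permutation test. GENCODE M21 matched all 10 genes by identifier and 9 by coordinates; the coordinates printed are those of the table. No label gives a batch. Members and lists were chosen with earlier results of these data known. Named from each list, besides the 10 genes, are the called genes with the smallest p, at most 2 a direction, and from lists of other cells the 2 most abundant. Some genes that this rule names are not reported here. A planned comparison of protein sequences was not made. Alternatives used limma 3.58.1 and DESeq2 1.42.0. The pipeline was tested on simulated data.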

Additional observations from a re-analysis of the deposited data

How the results depend on the processing

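Of the 10 genes, 8 were called lower and 1 higher under RLE and upper-quartile factors, without a filter, with DESeq2, limma-voom and limma on log2 of FPKM plus 1, with an assumed coefficient of variation of 0.2, and without each library in turn. The stricter filter (5 CPM in 3 libraries) called 6 lower, since it left fewer genes to test. With a minimum fold of 1.5, 5 were lower: Gata1, Epor and Hba-a1 were lost, with adjusted p of 0.308, 0.149 and 0.547. That minimum left 4512 of the 11571 genes called in all, and 19 lower and 16 higher of the erythroid lists, against 50 and 46. The assumed coefficient of variation left 6619 genes in all and 30 lower and 25 higher of the lists. On the log2 scale of FPKM plus 1, which understates low genes, Rhd and Sptb had values of -1.45 and -0.89. Without the filter 13683 genes were called.

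The sources used here do not say whether libraries with the same number are paired. Deviations from the group means correlated across genes at -0.00287, -0.00599 and -0.0063 for replicates 1 to 3. With 3 libraries per group, these values cannot tell whether such libraries came from the same mice or sort. With the replicate block 10965 genes were called, and the counts of the 10 genes stayed at 8 lower and 1 higher. Hba-a2 missed the threshold with the block (adjusted p = 0.0514), with DESeq2 (0.26) and with the minimum fold (0.0974). Car3 missed it with the block (0.0585) and Lck with DESeq2 (0.0717). At this depth Hbb-bs and Rhd rest on few counts.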
